A study of Mus musculus with 15 samples.

Results

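Among mouse genes that carry crystallin names without encoding a structural lens protein, 4 were followed here by their RNA in the developing lens. They are Crym (mu-crystallin), Cryz (zeta-crystallin), Cryzl1 (zeta-crystallin-like 1) and Cryl1 (lambda-crystallin), taken by symbol from the 14615 gene symbols of the table. All 4 passed the filter on low values and were among the 14532 genes tested. RNA-seq libraries came from lenses dissected from wild-type C57BL/6NTac mouse embryos (E, embryonic day) at E10.5 or E12.5, and later at E14.5 or E16.5, and from whole embryos labelled E10.5 to E12.5 (whole body). Each group had 3 libraries, called biological replicates in the labels, and each lens library was pooled, from 50 lenses for E10.5, 29 for E12.5, 18 for E14.5 and 17 for E16.5. The mixture of days behind a whole-body library is not stated, so E14.5 and E16.5 lens differed from whole body in age as well as in tissue.

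Taxon-specific crystallins are metabolic enzymes, or close relatives of enzymes, that some animal lineages accumulate in the lens at structural-protein levels. Mu-crystallin is a lens crystallin of some marsupials, and in other mammals it is a ketimine reductase that binds the thyroid hormone T3. Zeta-crystallin is a lens crystallin of guinea pigs and camels and an NADPH-dependent quinone reductase, and lambda-crystallin is a lens crystallin of rabbits and hares and an L-gulonate dehydrogenase. In the mouse lens the bulk of the crystallin protein comes instead from the alpha, beta and gamma families.

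Values are FPKM (fragment values scaled to transcript length and library size), summed over the transcripts of a gene. Means are given ± SD (n = 3), and log2 fold changes ± SE come from limma on log2(FPKM + 1), which understates the change of genes with low values. Calls required a p under 0.05 after Benjamini-Hochberg adjustment. The files hold no read counts, so depth is unknown.

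The lens identity of the samples was clear in its markers: all 8 lens markers (Pax6, Foxe3, Pitx3, Prox1, Mip, Lim2, Bfsp1 and Bfsp2) were called higher than in whole body at every stage. Among the structural crystallins, 14 of 16 could be tested and all 14 were called higher than in whole body at every stage. The 16 together took 0.0463% to 0.067% of the summed FPKM in E10.5 libraries, 7.27% to 12.9% in E12.5, 25.2% to 30.1% in E14.5 and 28.2% to 37.3% in E16.5 libraries. An exact 0 in these values can be a failed estimate, since Cryaa and Cryba1 were listed at 0 in some late lens libraries beside replicates of at least 50 FPKM. The third E10.5 library stood apart in its periocular mesenchyme markers, whose sum was 2827 FPKM there, against 401 and 388 FPKM in the other E10.5 libraries. No call of a comparison with E10.5 changed for the 4 genes when that library was left out. The other E10.5 libraries were not alike either. In replicates 1, 2 and 3 the 6 liver markers summed to 499.5, 13.3 and 918 FPKM, against 243 to 280 FPKM in whole body. Erythroid markers summed to 5071, 2309 and 2217 FPKM in them.

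The 4 genes did not move as a group. Against whole body, E10.5 lens had 1 of the 4 called, Crym, which was higher, where 55.7% of all tested genes were called (24.6% higher and 31.2% lower). At E12.5 it was again Crym alone, higher, where 69.4% of tested genes were called (32.3% higher and 37.1% lower). At E14.5 all 4 were called, with Cryz and Cryzl1 higher and Crym and Cryl1 lower, where 78.3% of tested genes were called (35.7% higher and 42.6% lower). E16.5 gave the same 4 calls in the same directions, where 80.2% of tested genes were called (36.8% higher and 43.4% lower). With most genes called in these contrasts, a call alone says little, and the size and course of each gene carry the description.

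Between lens stages the split was the same. In E12.5 against E10.5 lens, Cryzl1 rose and Crym fell, where 55.5% of tested genes were called (29.5% higher and 26.0% lower). In E14.5 against E12.5 lens, Cryz and Cryzl1 rose and Crym and Cryl1 fell, where 43.7% were called (21.2% higher and 22.4% lower). In E16.5 against E14.5 lens only Cryz was called, higher, where 10% were called (5.97% higher and 4.03% lower). Over the whole course, E16.5 against E10.5 lens, Cryz and Cryzl1 rose and Crym and Cryl1 fell, where 73.9% were called (37.2% higher and 36.7% lower).

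**Figure D1:**
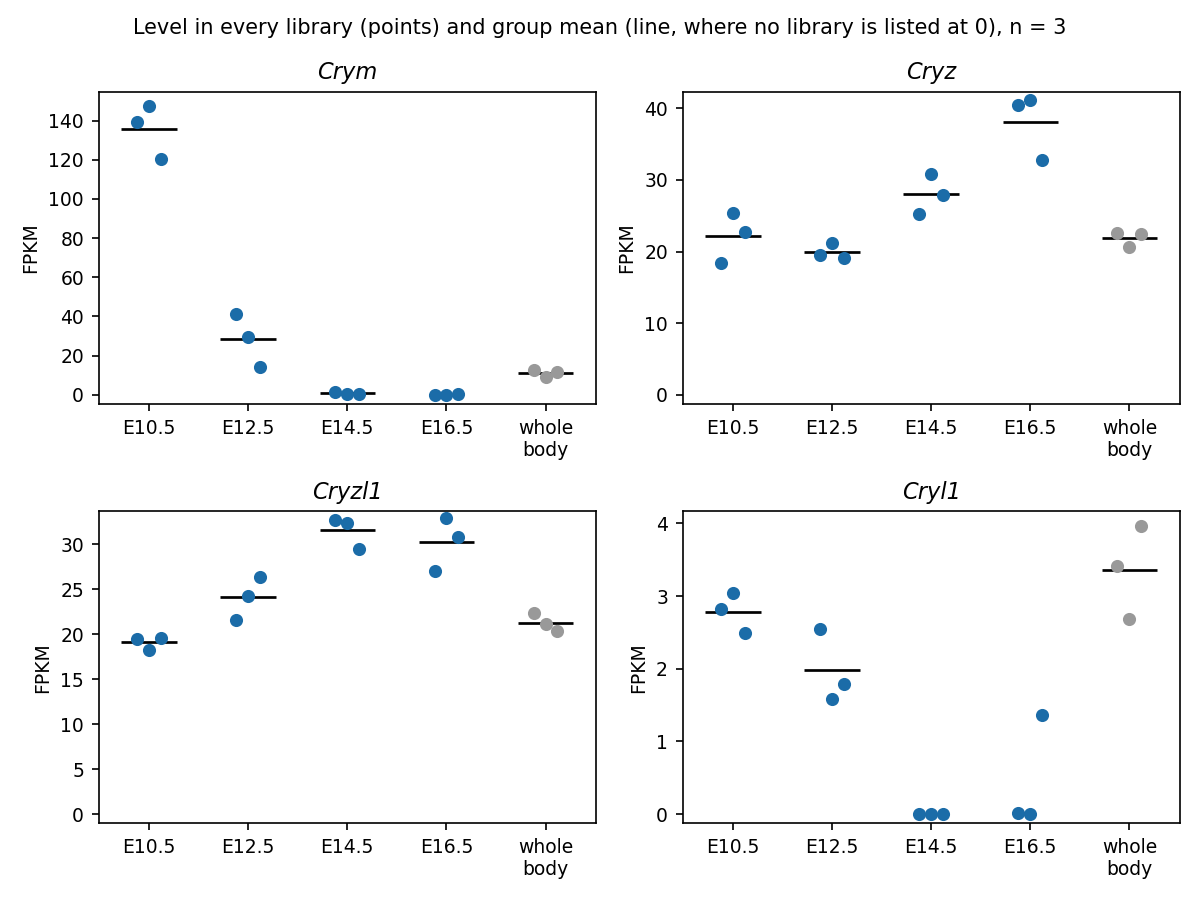
FPKM of Crym, Cryz, Cryzl1 and Cryl1 in every library (points; 3 per group, lens stages in blue and whole body in grey), with the group mean as a line where no library is listed at 0. Crym lies between 120.34 and 147.19 FPKM at E10.5 and at or under 1.32 FPKM from E14.5 on, Cryz and Cryzl1 stay between 18.22 and 41.12 FPKM, and Cryl1 lies at or under 3.97 FPKM in all libraries.

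Crym, the ketimine reductase and T3-binding protein, was highest in the earliest lens and all but gone by E14.5. It lies on chromosome 7 (120186380 to 120202111, minus strand, GRCm38). At E10.5 it had 139.38, 147.19 and 120.34 FPKM, above 92.8% of the tested genes. At E12.5 it had 41.13, 29.62 and 14.33 FPKM, an SD of 13.4 FPKM on a mean of 28.4 FPKM. At E14.5 it had 1.32, 0.37 and 0.35 FPKM and at E16.5 0.11, 0 and 0.53 FPKM, against 12.77, 8.9 and 11.52 FPKM in whole body. Each of these groups lay apart from every other except E14.5 and E16.5, which overlapped. The order of levels was therefore E10.5, E12.5, whole body and then both late stages together. In bulk libraries such as these, fewer cells of a type and less RNA per cell cannot be told apart.

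In E10.5 lens, Crym averaged 135.6 ± 13.8 FPKM, 12.3-fold over the 11.1 ± 1.98 FPKM of whole body, with a log2 fold change of 3.51 ± 0.31 (limma, adjusted p = 1.95e-07). Only 44 of the 14532 tested genes had a higher fold change in that contrast. In E12.5 lens it was 2.56-fold over whole body by the means, with a log2 fold change of 1.18 ± 0.31 (limma, adjusted p = 0.00363). That call was lost with a pseudocount of 0.1 in place of 1 (1.24, adjusted p = 0.074), although the 3 lens libraries were all above the 3 whole-body libraries. At both late stages the gene had crossed to the other side of whole body: the log2 fold change was -2.88 ± 0.31 in E14.5 lens (limma, adjusted p = 6.32e-07) and -3.32 ± 0.31 in E16.5 lens (adjusted p = 1.12e-07).

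Between stages, Crym fell by 2.33 on the log2 scale in E12.5 against E10.5 lens (SE 0.31, limma adjusted p = 1.96e-05). The larger step came next: it fell by 4.06 in E14.5 against E12.5 lens (SE 0.31, adjusted p = 2.88e-07), and only 17 tested genes had a lower fold change there. E16.5 and E14.5 lens differed by -0.45 ± 0.31 (adjusted p = 0.426), which was not called. Over the whole course the difference was -6.83 ± 0.31 (adjusted p = 6.23e-11), and 4 tested genes had a lower value. With 1 E16.5 library listed at 0 and the others under 1 FPKM, that size depends on the pseudocount, and it was -9.16 with 0.1.

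**Figure D2:**
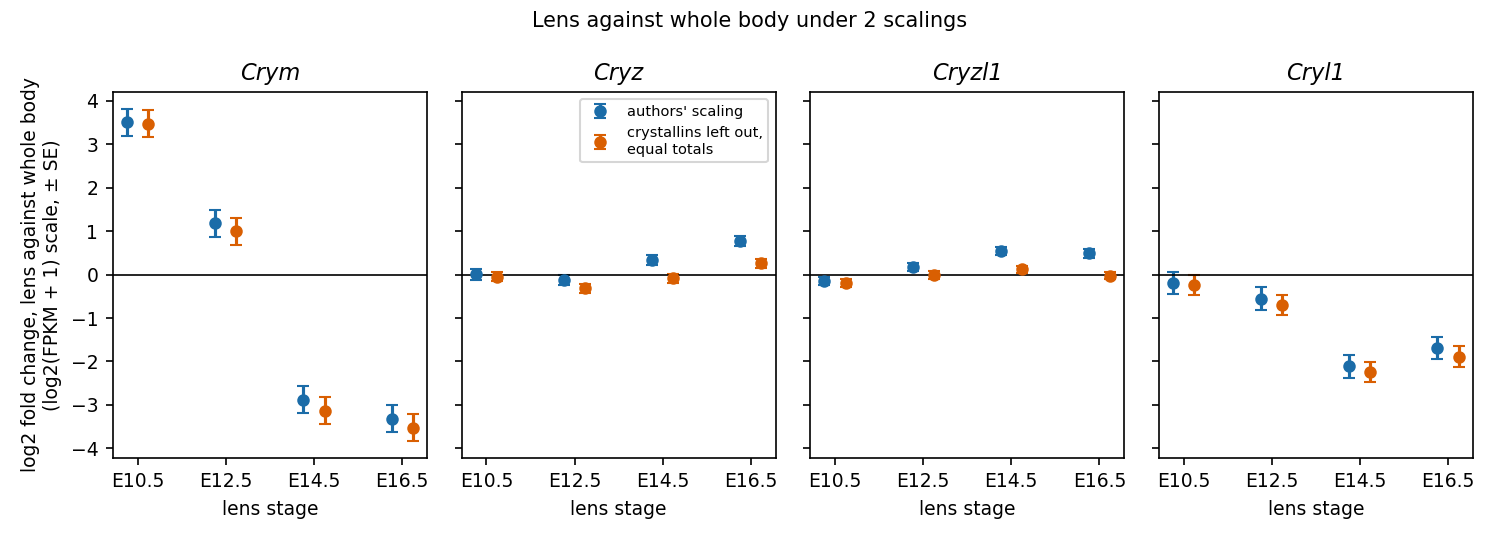
Log2 fold change (± SE, log2(FPKM + 1) scale) of each gene in each lens stage against whole body, with the values as scaled by the authors (blue) and with the structural crystallins left out and all libraries set to equal totals (orange). Crym is at 3.51 at E10.5 and at -3.32 at E16.5 under the authors' scaling and moves little between scalings, whereas Cryzl1 at E16.5 is at 0.49 under the authors' scaling and at -0.02 with the crystallins left out.

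Crym had 2 transcripts in the table, both matching a GENCODE transcript. The coding transcript of 1383 bases, Crym-201, carried from 96.6% to 100% of the gene's FPKM in every group. The other, Crym-202 of 2681 bases, is annotated as a retained intron. It had 5.83, 4.58 and 3.33 FPKM at E10.5, 0.18, 0.89 and 0.17 FPKM at E12.5 and was listed at 0 in all later lens libraries, against 0.08, 0.18 and 0.09 FPKM in whole body. Its E10.5 libraries were thus all above every other library. In a test of each of the 48306 transcripts, added after the gene values were seen, its log2 fold change was 2.30 ± 0.24 in E10.5 lens against whole body (limma, adjusted p = 1.33e-05), where 26.6% of transcripts were called. The intron-retaining form therefore had its highest level at the same stage as the coding form.

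In E14.5 against E12.5 lens, Crym fell together with several marker lists for tissue around the lens. Not all of these lists fell in E12.5 against E10.5 lens, where Crym also fell. Macrophage markers summed to between 138 and 164 FPKM in E10.5, 105 and 208 in E12.5, 6.32 and 17.3 in E14.5 and 6.88 and 16.4 in E16.5 lens, against 38.8 to 43.4 FPKM in whole body. Of those 11 markers, 10 were called higher in E10.5 lens than in whole body and 11 were called lower in E14.5 than in E12.5 lens. In E12.5 against E10.5 lens 1 of them rose, 1 fell and 9 were not called. Ptprc was listed at 0 in some libraries of every group but E10.5, Adgre1 at E14.5 and Cd68 at E16.5.

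Neural retina markers, 9 of 10 measured, summed to between 199 and 294 FPKM in E10.5, 59.9 and 148 in E12.5, 18.2 and 19.6 in E14.5 and 27.3 and 44.1 in E16.5 lens, against 167 to 190 FPKM in whole body. In E10.5 lens 3 of the 9 were called higher than in whole body and 3 lower, and in E14.5 against E12.5 lens 1 rose and 6 fell. Atoh7 and Neurod1 were listed at 0 in an E10.5 library, and Rax and Isl1 in an E14.5 library. Surface epithelium markers, 9 measured, summed to between 543 and 670 FPKM in E10.5, 122 and 160 in E12.5, 182 and 219 in E14.5 and 203 and 259 in E16.5 lens, against 141 to 142 FPKM in whole body. None of the 9 rose and 6 fell in E12.5 against E10.5 lens, and the epidermal markers Krt5, Krt14 and Trp63 were listed at 0 in late lens libraries. At E12.5, E14.5 and E16.5 alike, 8 of the 9 were called lower than in whole body and 1 higher. Among all tested genes 37.1%, 42.6% and 43.4% were lower in these contrasts. The late sums therefore do not describe most of the list. The 10 endothelium markers summed to between 568 and 638 FPKM in E10.5, 278 and 537 in E12.5, 88.8 and 163 in E14.5 and 103 and 166 in E16.5 lens, against 312 to 318 FPKM in whole body, and 9 of them fell in E14.5 against E12.5 lens. All 10 erythroid markers fell in that contrast too, and summed to between 2217 and 5071 FPKM in E10.5, 3440 and 7714 in E12.5, 181 and 439 in E14.5 and 109 and 230 in E16.5 lens, against 7467 to 9548 FPKM in whole body. Over all tested genes 22.4% were lower in E14.5 than in E12.5 lens. In E12.5 against E10.5 lens, 1 endothelium marker rose and 6 fell, and 1 neural retina marker rose and 4 fell. Of the erythroid markers 3 rose and 1 fell there. Over all tested genes 29.5% were higher and 26.0% lower in that contrast.

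Within E12.5 the 3 libraries fell in the same order in Crym and in several of the lists. Crym had 41.13, 29.62 and 14.33 FPKM in replicates 1, 2 and 3. In the same libraries macrophage markers summed to 208, 144 and 105 FPKM, neural retina markers to 148, 95.8 and 59.9 FPKM, endothelium markers to 537, 301 and 278 FPKM, periocular mesenchyme markers to 1296, 560 and 457 FPKM and erythroid markers to 7714, 4539 and 3440 FPKM. Surface epithelium markers, at 122, 160 and 147 FPKM, and the 3 pigment cell markers, at 79.5, 16.1 and 17.3 FPKM, had other orders. The share of structural crystallins ran opposite to Crym, at 7.27%, 11.3% and 12.9%. Within E10.5 the orders differed. Replicate 3 there had the lowest Crym, at 120.34 FPKM. Its macrophage (164 FPKM), neural retina (294), surface epithelium (670) and periocular mesenchyme (2827) sums were the highest of that stage. Its endothelium (568 FPKM) and erythroid (2217) sums were the lowest. Leaving out replicate 1 of E12.5 gave a log2 fold change of 0.86 for Crym against whole body (limma, adjusted p = 0.0206), so the call did not rest on that library. The part of these tissues in the Crym values was not tested.

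**Figure D3:**
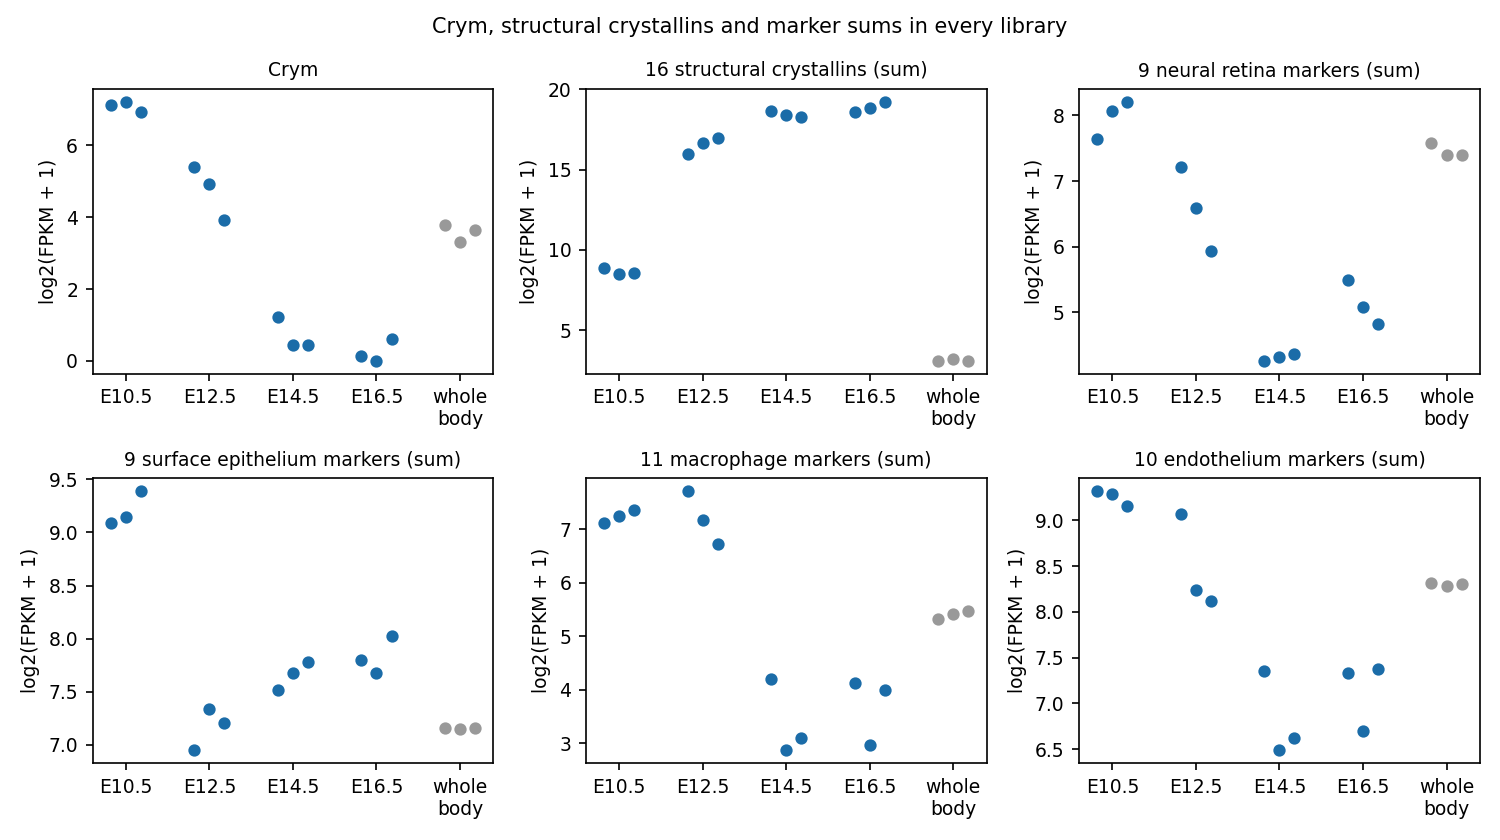
Crym, the sum of 16 structural crystallins and the sums of 4 marker lists in every library, as log2(FPKM + 1) by group (lens stages in blue, whole body in grey; each panel has its own axis, which does not start at 0). Crym and the macrophage, neural retina and endothelium sums are low at E14.5 and E16.5, and within E12.5 the 3 libraries run in 1 order in Crym (41.13, 29.62 and 14.33 FPKM) and in the opposite order in the crystallin sum.

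Cryz, the NADPH-dependent quinone reductase that in pig kidney cells also binds AU-rich elements of mRNA, rose late in the lens. It had 18.34, 25.36 and 22.66 FPKM in E10.5, 19.48, 21.13 and 19.14 in E12.5, 25.26, 30.86 and 27.92 in E14.5 and 40.43, 41.12 and 32.82 in E16.5 lens, against 22.52, 20.66 and 22.47 FPKM in whole body. The E16.5 libraries were above all others, the E14.5 libraries were above those of E12.5 and whole body, and E10.5, whole body and E12.5 overlapped with each other. Against whole body (21.9 ± 1.06 FPKM) the log2 fold change was 0.77 ± 0.12 at E16.5, where the mean was 38.1 ± 4.61 FPKM (limma, adjusted p = 2.91e-05). At E14.5, where the mean was 28.01 ± 2.80 FPKM, it was 0.34 ± 0.12 (adjusted p = 0.0179). In the earlier lens it was 0.00 ± 0.12 at E10.5 (adjusted p = 0.98) and -0.13 ± 0.12 at E12.5 (adjusted p = 0.347), neither of them called.

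Among lens stages, Cryz rose by 0.76 ± 0.12 in E16.5 against E10.5 lens (limma, adjusted p = 3.77e-05), by 0.47 ± 0.12 in E14.5 against E12.5 lens (adjusted p = 0.00559) and by 0.43 ± 0.12 in E16.5 against E14.5 lens (adjusted p = 0.0352). The rise at E16.5 remained called with the structural crystallins left out of the scaling, at 0.26 against whole body (adjusted p = 0.0376) and 0.30 against E10.5 lens (adjusted p = 0.019). That rescaling lowered the median of all genes by 0.47 and 0.38 in these contrasts, so relative to all genes Cryz still rose. At E14.5 it did not hold: the log2 fold change against whole body was -0.09 with the crystallins left out, and the step in E14.5 against E12.5 lens was no longer called (0.23, adjusted p = 0.0885). The E14.5 value against whole body was also no longer called without E14.5 replicate 2 (0.27, adjusted p = 0.0795) or whole body replicate 2 (0.30, adjusted p = 0.0636). The step from E14.5 on was lost without E14.5 replicate 1 (0.36, adjusted p = 0.131) or 3 (0.43, 0.0889), without E16.5 replicate 1 (0.38, 0.127) or 2 (0.37, 0.137), without whole body replicate 3 (0.43, 0.0519), and with the 2 groups fitted alone (0.43, 0.121).

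Cryz lies on chromosome 3 (154596711 to 154623182, plus strand, GRCm38), and its first 394 bases overlap the start of Tyw3, a tRNA-modifying enzyme gene on the opposite strand (154576431 to 154597104). Whether reads were counted by strand is not stated, so reads from this overlap cannot be assigned. Tyw3 had means of 8.78 ± 1.40, 8.66 ± 1.97, 7.96 ± 0.42 and 8.66 ± 1.13 FPKM along the 4 lens stages, against 8.63 ± 1.26 FPKM in whole body. All of its groups overlapped, the E16.5 lens with whole body included. RefSeq (GRCm38.p6) has 2 windows for Cryz, each from 250 bases before to 50 after an annotated start, and they are shown because the first lies within the span of Tyw3 and the second holds the Tyw3 start. Capitals mark the 50 bases from each start. The first is at chr3:154596461-154596760 and the second at chr3:154596947-154597246, both on the plus strand.
Cryz upstream start: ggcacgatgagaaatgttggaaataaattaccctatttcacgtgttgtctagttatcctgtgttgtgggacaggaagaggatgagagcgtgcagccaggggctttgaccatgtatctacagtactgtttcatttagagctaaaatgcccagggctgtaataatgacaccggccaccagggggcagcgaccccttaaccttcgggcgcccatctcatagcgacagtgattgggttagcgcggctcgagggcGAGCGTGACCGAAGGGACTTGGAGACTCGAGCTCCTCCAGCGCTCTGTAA
Cryz downstream start: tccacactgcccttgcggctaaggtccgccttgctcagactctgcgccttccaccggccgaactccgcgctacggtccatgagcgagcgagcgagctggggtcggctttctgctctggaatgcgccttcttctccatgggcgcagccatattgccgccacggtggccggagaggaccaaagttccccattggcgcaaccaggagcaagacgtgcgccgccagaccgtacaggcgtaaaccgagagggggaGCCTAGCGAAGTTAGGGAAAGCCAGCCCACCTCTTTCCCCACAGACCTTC

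The late rise of Cryz was not shared evenly by its 4 transcripts, which had 3 start groups in the authors' table. A transcript of 1059 bases, assigned to the coding Cryz-201, had 2.69, 5.93 and 3.37 FPKM in E10.5, 4.62, 5.63 and 4.16 in E12.5, 4.65, 8.19 and 5.86 in E14.5 and 13.69, 12.88 and 10.75 in E16.5 lens, against 4.87, 3.22 and 4.04 FPKM in whole body. Its E16.5 libraries were above all others. It was the only Cryz transcript called, with 1.42 ± 0.26 in E16.5 lens against whole body (limma, adjusted p = 0.000683), where 43.6% of transcripts were called, and 1.47 in E16.5 against E10.5 lens (adjusted p = 0.000729), where 34.3% were called. A transcript of 2201 bases, which differs in its junctions from the nearest reference, Cryz-207, annotated as a target of nonsense-mediated decay, stayed between means of 10.3 and 11.6 FPKM in all groups. It made up 52.3% of Cryz FPKM at E10.5 and 28.4% at E16.5. The transcript of 2505 bases, also assigned to Cryz-201, was listed at 1.8, 0 and 11.49 FPKM in the E10.5 libraries, so the division of Cryz reads among transcripts was unstable between replicates. In E16.5 lens this transcript had 13.34, 13.6 and 6.86 FPKM. Its log2 fold change against E10.5 lens was 1.85 ± 0.83 (limma, adjusted p = 0.108), not called but no smaller than that of the 1059-base transcript. With transcripts matching the reference alone, the E14.5 lens value against whole body (0.43, adjusted p = 0.282) and the E16.5 value against E14.5 lens (0.71, adjusted p = 0.277) were not called.

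Cryzl1, a quinone reductase relative of zeta-crystallin, had its highest lens levels at E14.5 and E16.5. It had 19.5, 18.22 and 19.59 FPKM in E10.5, 21.61, 24.24 and 26.38 in E12.5, 32.72, 32.38 and 29.42 in E14.5 and 26.99, 32.91 and 30.79 in E16.5 lens, against 22.3, 21.08 and 20.32 FPKM in whole body. The late stages overlapped each other and were above all other groups, E12.5 overlapped with whole body, and E10.5 was below whole body in every library. Against whole body (21.2 ± 0.9989 FPKM) the log2 fold change was 0.55 ± 0.09 in E14.5 lens (limma, adjusted p = 8.52e-05), which averaged 31.5 ± 1.82 FPKM. In E16.5 lens, at 30.2 ± 2.999 FPKM, it was 0.49 ± 0.09 (adjusted p = 0.000243). E12.5 lens (0.17 ± 0.09, adjusted p = 0.124) and E10.5 lens (-0.15 ± 0.09, adjusted p = 0.211) were not called.

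Cryzl1 rose by 0.32 ± 0.09 in E12.5 against E10.5 lens (limma, adjusted p = 0.0112), by 0.38 ± 0.09 in E14.5 against E12.5 lens (adjusted p = 0.00503) and by 0.63 ± 0.09 in E16.5 against E10.5 lens (adjusted p = 2.42e-05). No transcript of the 4 genes was called in E16.5 against E14.5 lens, where 1.48% of transcripts were called. For the gene, the value in that contrast was -0.06 ± 0.09 (adjusted p = 0.774). The first step was lost without E12.5 replicate 3 (0.25, adjusted p = 0.0567), and without E12.5 replicate 1 the E12.5 value against whole body became called (0.24, adjusted p = 0.0415). All of these rises depended on the scaling: their calls held with quantile normalization but not with the structural crystallins left out. With the structural crystallins left out and equal totals, the log2 fold change against whole body was 0.12 in E14.5 lens (adjusted p = 0.209) and -0.02 in E16.5 lens (adjusted p = 0.822), and that of E16.5 against E10.5 lens was 0.17 (adjusted p = 0.083). The same rescaling lowered the median of all genes by 0.40 in E14.5 lens and 0.47 in E16.5 lens against whole body. Cryzl1 was thus above the median gene in E14.5 and E16.5 lens, but whether its own level rose depends on which total is held fixed.

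**Figure D4:**
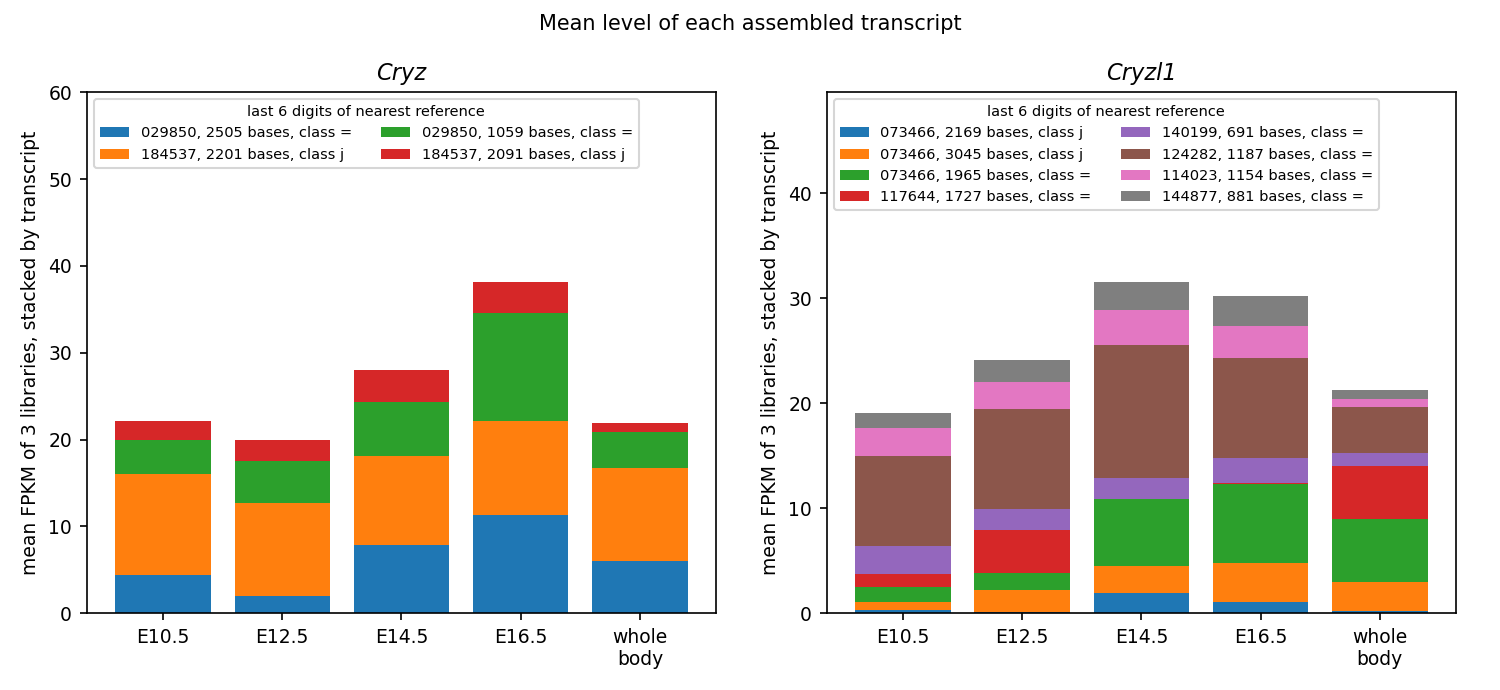
Mean FPKM of each assembled transcript of Cryz (left) and Cryzl1 (right), stacked, in each lens stage and whole body (3 libraries each); the legend gives the last 6 digits of the nearest reference transcript, the length and the class code (= matches the reference, j shares a junction with it). The 1059-base transcript of Cryz makes up the tallest segment at E16.5, at 12.4 FPKM, and the 1727-base transcript of Cryzl1 is seen in whole body and E12.5 but is at or near 0 at E14.5 and E16.5.

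Cryzl1 lies on chromosome 16 (91689322 to 91728975, minus strand, GRCm38) between Donson, 551 bases away, and Itsn1, 305 bases away and read in the opposite direction. Itsn1, an endocytic scaffold gene, had means of 140 ± 8.25, 177.4 ± 16.04, 203 ± 15.5 and 220 ± 18.7 FPKM along the 4 lens stages, against 152 ± 7.44 FPKM in whole body. Donson, a DNA replication gene, had 23.9 ± 1.93, 14.9 ± 0.88, 11.6 ± 0.57 and 8.26 ± 0.53 FPKM along them, against 23.3 ± 1.56 FPKM in whole body. The mean of Itsn1, which starts head to head with Cryzl1, was thus higher at each later lens stage, and that of Donson was lower at each. The RefSeq window at the Cryzl1 start, chr16:91728753-91729052 on the minus strand, is shown because it reaches into the stretch between Cryzl1 and Itsn1, with the 50 bases from the start in capitals.
Cryzl1 start: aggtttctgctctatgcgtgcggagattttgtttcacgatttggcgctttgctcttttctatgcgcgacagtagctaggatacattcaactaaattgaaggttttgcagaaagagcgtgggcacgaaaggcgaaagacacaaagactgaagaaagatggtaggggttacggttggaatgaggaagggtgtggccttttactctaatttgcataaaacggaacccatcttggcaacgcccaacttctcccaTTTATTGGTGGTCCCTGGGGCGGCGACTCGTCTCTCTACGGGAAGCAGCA

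Start windows were found for 3 of the 4 genes, and Crym, which had none, was not searched. The 3 printed windows and that of Cryl1 were searched on both strands for TGCTGA (reverse complement TCAGCA), part of the recognition element of Maf factors, and none of these 4 windows held it. Of all 32851 RefSeq windows of 300 bases, 19.5% did. Their GC content was 53.0% and 63.3% for Cryz, 48.3% for Cryzl1 and 62.3% for Cryl1, where the median of all windows was 52.7%.

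Of the 8 Cryzl1 transcripts, which had 6 start groups, the coding transcript of 1187 bases, Cryzl1-206, was the most abundant in every lens stage. It had 6.93, 9.85 and 8.82 FPKM in E10.5, 6.05, 10.37 and 11.97 in E12.5, 10.93, 15.89 and 11.19 in E14.5 and 6.29, 11.23 and 11.19 in E16.5 lens, against 6.77, 3.2 and 3.02 FPKM in whole body. The E10.5 and E14.5 libraries were all above those of whole body, and 1 library each at E12.5 and E16.5 was not. At E14.5 its log2 fold change against whole body was 1.41 (limma, adjusted p = 0.00332), where 39.6% of transcripts were called, and the call held under each alternative tried. The calls at E12.5 (0.995, adjusted p = 0.032, where 30.6% were called) and E16.5 (1.02, adjusted p = 0.0207) were lost with the crystallins left out (0.84, adjusted p = 0.051, and 0.56, adjusted p = 0.155). Both were also lost without replicate 2 or 3 of the same lens stage or of whole body, with values from 0.82 to 0.91 at E12.5 and from 0.85 to 0.89 at E16.5.

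The coding transcript of 1727 bases, Cryzl1-203, was listed lower in late lens than in whole body. It was listed at 0, 2.74 and 0.94 FPKM in E10.5, 6.27, 4.2 and 1.82 in E12.5, 0 in all 3 libraries in E14.5 and 0.17, 0 and 0 in E16.5 lens, against 5.67, 5.28 and 4.31 FPKM in whole body. All E14.5 and E16.5 libraries were below those of whole body, and the difference on the log2(FPKM + 1) scale was -2.60 at E14.5 (limma, adjusted p = 0.000361) and -2.52 at E16.5 (adjusted p = 0.000406). In E14.5 against E12.5 lens it was -2.25 (adjusted p = 0.00607), where 8.73% of transcripts were called. At E10.5, where the value against whole body was -1.65 (adjusted p = 0.0143), the call was lost without E10.5 replicate 1 (-1.17, adjusted p = 0.0551). Another coding transcript, Cryzl1-201 of 1965 bases, was listed at 2.45, 0 and 1.65 FPKM in E10.5 and 0, 0.07 and 4.63 in E12.5 lens. In E14.5 lens it had 7.8, 5.75 and 5.43 FPKM. Within E10.5 and E12.5 it was thus low where Cryzl1-203 was high. The division of reads between Cryzl1-201 and Cryzl1-203 was not tested.

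Cryl1, the L-gulonate dehydrogenase of the glucuronate route, was the lowest of the 4 genes in E10.5 and E12.5 lens and in whole body, and was listed at or near 0 in 5 of 6 late lens libraries. It lies on chromosome 14 (57274993 to 57398529, minus strand, GRCm38) and had a single transcript in the table, of 1410 bases, matching the coding Cryl1-201. It had 2.82, 3.05 and 2.49 FPKM in E10.5 and 2.55, 1.59 and 1.79 in E12.5, was listed at 0 in all 3 libraries in E14.5 and at 0.01, 0 and 1.37 in E16.5 lens, against 3.42, 2.68 and 3.97 FPKM in whole body. The E14.5 and E16.5 libraries were below every E10.5, E12.5 and whole-body library. Whole body overlapped with E10.5, and E10.5 with E12.5.

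On the log2(FPKM + 1) scale Cryl1 differed from whole body by -2.11 ± 0.26 in E14.5 lens (limma, adjusted p = 2.85e-06) and by -1.69 ± 0.26 in E16.5 lens (adjusted p = 2.69e-05). The values were -0.19 ± 0.26 in E10.5 lens (adjusted p = 0.558) and -0.55 ± 0.26 in E12.5 lens (adjusted p = 0.074), not called. The E12.5 value became called without E12.5 replicate 1 (-0.69, adjusted p = 0.0483), without E16.5 replicate 3 (-0.55, adjusted p = 0.00529), with the crystallins left out (-0.70, adjusted p = 0.0166) and with the 2 groups fitted alone (-0.55, adjusted p = 0.0265). In E14.5 against E12.5 lens the difference was -1.56 ± 0.26 (adjusted p = 0.000262), and in E16.5 against E10.5 lens -1.50 ± 0.26 (adjusted p = 0.000107). These sizes rest on the pseudocount, and with 0.1 the E14.5 value against whole body was -5.09, still called. E16.5 replicate 3 was the only late library above 0.01 FPKM. In E10.5 lens the 6 liver markers summed to 499.5, 13.3 and 918 FPKM in libraries where Cryl1 had 2.82, 3.05 and 2.49 FPKM. In E14.5 against E12.5 lens, where Cryl1 fell, 22.4% of all tested genes were lower. There 11 of 11 macrophage, 10 of 10 erythroid, 9 of 10 endothelium and 9 of 10 periocular mesenchyme markers were called lower. So were 6 of 9 neural retina, 3 of 3 pigment cell and 4 of 9 surface epithelium markers. None of 6 liver markers was called lower. They summed to only 0.69 to 0.76 FPKM in E12.5 lens, so a fall could not be seen. The part of these tissues in the Cryl1 values was not tested.

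Over the 15 libraries, the genes with the most similar course to each of the 4 were taken by Pearson's r of log2(FPKM + 1), among the 10990 genes that averaged at least 10 FPKM in some group. The libraries share their group structure, so these values describe a shared course across 5 groups. For Crym they were Cyth4 (r = 0.985), Clec1b (0.985) and Capg (0.983), whose means were 13.3, 20.1 and 10.6 FPKM at E10.5 and at or under 1.08 FPKM at E14.5 and E16.5. For Cryz they were the HSP90 co-chaperone Ahsa1 (r = 0.976), the aminopeptidase Lap3 (0.966) and the cryptochrome Cry2 (0.960), which averaged 63.1 FPKM at E16.5, against 22.4 FPKM in whole body. For Cryzl1 they were the inositol phosphate kinase Ppip5k2 (r = 0.980), Gskip (0.978) and Armc8 (0.978). For Cryl1 they were the ETS factor Elk3 (r = 0.958), Sh3pxd2b (0.956) and the calcium channel Itpr3 (0.956), which averaged 1.76 FPKM at E14.5 and 2.58 FPKM at E16.5, against 15.2 FPKM in whole body.

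Of the partners of Crym in thyroid hormone handling, 15 were measured, and E16.5 lens against whole body had 6 called higher, 6 called lower and 3 without a call. Over all tested genes 36.8% were higher and 43.4% lower in that contrast, 80.2% in all, so the number called was near the background. The list's median log2 fold change was 0.13, where that of all tested genes was -0.11. With the crystallins left out the list's median was -0.39 and that of all genes -0.58. The thyroid hormone receptor Thrb averaged 15.3 ± 2.30 FPKM in E10.5, 8.53 ± 1.39 in E12.5, 6.91 ± 0.76 in E14.5 and 4.45 ± 0.83 in E16.5 lens, against 1.09 ± 0.24 FPKM in whole body. It was thus highest in the same stage as Crym, but unlike Crym it stayed above whole body at E16.5 (1.38 ± 0.17, adjusted p = 2.46e-06). The other receptor, Thra, ran the other way, at 19.4 ± 0.77 FPKM in E10.5 lens and 67.2 ± 4.83 FPKM in E16.5 lens, against 47.8 ± 2.23 FPKM in whole body. The plasma carrier Ttr (-3.40 ± 0.76) was lower in E16.5 lens than in whole body, and the coactivator Ncoa2 was higher (1.10 ± 0.12).

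Lysine breakdown, the route that yields the cyclic ketimines Crym can reduce, had 13 measured genes. In E16.5 lens against whole body 4 of them were higher, 4 lower and 5 without a call. Among all tested genes 36.8% were higher and 43.4% lower. The list's median was -0.05, beside -0.11 for all genes. It was -0.54 beside -0.58 with the crystallins left out, and 0.15 beside -0.025 with quantile normalization. The aldehyde dehydrogenase Aldh7a1 averaged 96.4 ± 7.58 FPKM in E10.5, 218 ± 38.0 in E12.5, 353 ± 43.6 in E14.5 and 377 ± 35.9 in E16.5 lens, against 53.6 ± 2.999 FPKM in whole body (2.79 ± 0.12 at E16.5, limma adjusted p = 2.10e-11). Aass, the first enzyme of the saccharopine route, ran the other way, at 5.14 ± 1.90 FPKM in E10.5 lens and 0.43 ± 0.55 FPKM in E16.5 lens, against 2.39 ± 1.34 FPKM in whole body. Gcdh, a dehydrogenase further down the route, was lower in E16.5 lens than in whole body (-0.83 ± 0.11).

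Among 12 quinone reductases and zeta-crystallin-type dehydrogenases, 1 was called higher and 2 lower in E10.5 lens than in whole body, where 24.6% of all tested genes were higher and 31.2% lower. At E16.5, 7 were called higher and 4 lower, where 36.8% of all genes were higher and 43.4% lower. The list's median there was 0.80, beside -0.11 for all genes, and 0.29 beside -0.58 with the crystallins left out. Mecr, a mitochondrial enoyl reductase, averaged 16.3 ± 1.24 FPKM in E10.5, 35.0 ± 6.11 in E12.5, 72.5 ± 5.68 in E14.5 and 85.9 ± 10.6 in E16.5 lens, against 15.3 ± 0.66 FPKM in whole body (2.41 ± 0.12 at E16.5, limma adjusted p = 9.32e-11). The prostaglandin reductases parted, with Ptgr2 higher (1.78 ± 0.10) and Ptgr1 lower (-1.85 ± 0.18) in E16.5 lens than in whole body, and Zadh2 was lower (-1.50 ± 0.11). Sord, the sorbitol dehydrogenase counted in this list and in the glucuronate list, was higher (1.77 ± 0.20).

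Of 11 genes in a list for glutamine breakdown and AU-rich element binding, 4 were called higher and 6 lower in E16.5 lens than in whole body, where 36.8% of all tested genes were higher and 43.4% lower. The list's median was -0.37, beside -0.11 for all genes, and -0.89 beside -0.58 with the crystallins left out. Gls2, an enzyme of glutamine breakdown, was higher in E16.5 lens than in whole body (2.45 ± 0.16), and the element-binding proteins Zfp36l1 (-4.36 ± 0.30) and Hnrnpd (-1.35 ± 0.09) were lower.

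The glucuronate and polyol enzymes, which include the neighbours of Cryl1 in its pathway, had 9 measured genes, with 5 called higher and 2 lower in E16.5 lens than in whole body, against a background of 80.2% of all tested genes called (36.8% higher and 43.4% lower). The list's median was 0.38 beside -0.11 for all genes, and -0.14 beside -0.58 with the crystallins left out. Ugdh, which makes UDP-glucuronate, averaged 42.3 ± 3.90 FPKM in E10.5 lens and 10.3 ± 0.26 FPKM in E16.5 lens, against 64.8 ± 1.06 FPKM in whole body, and Xylb was lower as well (-0.55 ± 0.19 at E16.5). Gusb, the lysosomal glucuronidase, was higher (1.38 ± 0.11 at E16.5). Of 8 hydroxyacyl-CoA and hydroxyacid dehydrogenase relatives of lambda-crystallin, 5 were called higher and 3 lower against the same background. Their median was 0.63 beside -0.11 for all genes, and 0.11 beside -0.58 with the crystallins left out. Phgdh (1.38 ± 0.09) and Hsd17b10 (1.19 ± 0.09) were at the high end, and Bdh1 (-3.21 ± 0.18) and Ehhadh (-0.80 ± 0.18) at the low end.

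Enzymes and binding proteins that serve as lens crystallins in other vertebrates gave a wide range of levels in mouse lens. Of 7 measured, 6 were called higher in E10.5 lens than in whole body, where 24.6% of all tested genes were higher and 31.2% lower. At E16.5, 4 were called higher and 2 lower, where 36.8% of all genes were higher and 43.4% lower. The list's median there was 1.29 beside -0.11 for all genes, and 0.78 beside -0.58 with the crystallins left out. Aldh1a1, whose relative is the eta-crystallin of elephant shrews, averaged 659 ± 199.9 FPKM in E10.5, 957 ± 103 in E12.5, 1558 ± 107 in E14.5 and 1761 ± 36.9 in E16.5 lens, against 1.67 ± 0.37 FPKM in whole body (9.38 ± 0.18 at E16.5, limma adjusted p = 2.56e-15). Ldhb, the epsilon-crystallin of ducks, went the other way, at 124 ± 21.8 FPKM in E10.5, 30.0 ± 10.3 in E12.5, 3.35 ± 0.86 in E14.5 and 4.71 ± 0.82 in E16.5 lens, against 144 ± 10.3 FPKM in whole body. Gapdh was higher in E16.5 lens than in whole body (2.20 ± 0.12). Set beside these, the 4 genes ended at E16.5 with mean levels of 38.1 FPKM for Cryz, 30.2 FPKM for Cryzl1 and at or near 0 for Crym and Cryl1.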

How the data were processed

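RNA-seq covered 15 libraries in 5 groups of 3. The deposited values are FPKM for each transcript that the authors assembled. Build mm10 and the tools Cuffnorm, Cufflinks, TopHat2 2.0.9 and Trimmomatic are named per the submitters' processing notes. Normalization setting, strand use and read depth are not given in the sources used here, so no counting intervals could be computed. A gene's FPKM is the sum over transcripts with its symbol, without the 172 that overlap exons on the other strand (class x). Of 14615 symbols, 80 with fewer than 3 libraries at 1 FPKM were removed, as were 3 (Cryaa, Cryba1 and Nufip2) listed at 0 beside a replicate of at least 50 FPKM, leaving 14532. Coordinates and transcript types are from GENCODE vM21, and start windows from RefSeq.

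The values were fitted on the scale log2(FPKM + 1) by limma 3.58.1 (R 4.3.3) with a mean for each group, 10 residual degrees of freedom, a trended eBayes prior and Benjamini-Hochberg adjustment over all genes tested. The fit was tested on simulated data. The alternatives were a pseudocount of 0.1, no filter, quantile normalization, crystallins left out with equal totals, reference-matching transcripts alone, a replicate block, the 2 compared groups alone, eBayes without trend and leaving out each library. A fit of single transcripts was chosen after seeing the data. The genes and lists were chosen with earlier results of these data known. Beside the 4 genes, the text names the 3 genes with the highest Pearson r with each, and from each list up to 2 called genes from each end of the E16.5 against whole body fold change; some of these are not reported here. Thra was named after its values were seen, as the other thyroid hormone receptor. Python 3.11.15, pandas 2.3.3 and matplotlib 3.10.9 were used.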

Additional observations from a re-analysis of the deposited data

Results flagged for a closer look

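Crym differed between lens stages in its direction against whole body. Its log2 fold change was 3.51 ± 0.31 in E10.5 lens and -3.32 ± 0.31 in E16.5 lens, and the limma contrast of E16.5 against E10.5 lens, which is the difference between the 2 values, was -6.83 ± 0.31 (adjusted p = 6.23e-11). All 3 E10.5 libraries were above, and all 3 E16.5 libraries below, the whole-body libraries.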

How the results depend on the processing

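Each of the 32 values (4 genes in 8 comparisons) was recomputed under 8 alternatives. No filter and no trend in eBayes left all 32 on their side of the threshold with the same direction. Replicate numbers did not pair the libraries (r of same-numbered deviations from -0.0946 to 0.2373 over 30 pairs, 4 above 0.1), and the replicate block changed no call (Crym in E10.5 lens against whole body 3.51, adjusted p = 4.12e-07). The cause of the changes below was not tested. With crystallins left out, Cryz was -0.0445, -0.32 (called) and -0.087 in E10.5, E12.5 and E14.5 lens against whole body, -0.27 (called) in E12.5 against E10.5 and 0.23 (not called) in E14.5 against E12.5 lens. Under that setting Cryzl1 was -0.0152, 0.12 and -0.0217 in E12.5, E14.5 and E16.5 lens against whole body, and 0.18, 0.14 and 0.17 in E12.5 against E10.5, E14.5 against E12.5 and E16.5 against E10.5 lens, none called, and Cryl1 was -0.70 (called) in E12.5 lens against whole body. With reference-matching transcripts alone, Cryz was -0.38 in E10.5 and 0.43 in E14.5 lens against whole body and 0.71 in E16.5 against E14.5 lens, and Cryzl1 was 0.26 in E12.5 against E10.5 and 0.30 in E14.5 against E12.5 lens, none called. With quantile normalization Cryl1 in E10.5 lens against whole body was 0.26. With a pseudocount of 0.1 Crym in E12.5 lens against whole body was 1.24 (not called). With the 2 groups alone, Cryl1 in E12.5 lens against whole body was -0.55 (called) and Cryz in E16.5 against E14.5 lens 0.43 (not called). Leaving out 1 library kept 465 of 480 values on their side, and the others ranged as follows. Cryl1 in E12.5 lens against whole body ran from -0.69 to -0.45, Cryz in E10.5 lens against whole body from -0.10 to 0.13, in E14.5 lens against whole body from 0.27 to 0.41 and in E16.5 against E14.5 lens from 0.36 to 0.53. Cryzl1 ran from 0.25 to 0.39 in E12.5 against E10.5 lens, from 0.10 to 0.24 in E12.5 lens against whole body and from -0.12 to 0.016 in E16.5 against E14.5 lens. The share of higher genes among all calls against whole body with crystallins left out was 28.8% for E14.5 and 28.005% for E16.5 lens, beside 45.6% and 45.9% as deposited. It was 35.1% beside 46.5% at E12.5, 40.5% beside 53.1% in E12.5 against E10.5, 21.5% beside 48.7% in E14.5 against E12.5, 35.1% beside 59.7% in E16.5 against E14.5 and 30.6% beside 50.3% in E16.5 against E10.5 lens. With quantile normalization it was 54.1% beside 44.1% at E10.5 and 46.5% beside 59.7% in E16.5 against E14.5 lens. Depth is unknown, so a listed 0 for Crym or Cryl1 cannot be told from a level below detection.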
